A study of Homo sapiens with 12 samples.

Results

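The 57 genes described here encode nucleolar factors that build ribosomes. They were chosen as named genes of ribosome assembly, of the small nucleolar ribonucleoproteins (snoRNPs) and of pre-rRNA processing, by function and not by a threshold on their measured values. Earlier results of these data were known when they were chosen, so the counts below do not come from a blind list. All 57 were present among the 57353 gene names of the count table, and all 57 were among the 12998 genes that passed the filter on low counts. The libraries came from MOLM-13 cells, an established human acute myeloid leukemia (AML) line that carries the FLT3-ITD mutation and whose genotype is labelled WT in every library. The 4 groups of 3 replicates each were vehicle (DMSO) in RPMI, 3 nM quizartinib (AC220, an inhibitor of the FLT3 kinase) in RPMI, vehicle in hBMSC-CM and 3 nM quizartinib in hBMSC-CM, all for 15 hr. RPMI was the regular medium with fetal bovine serum and antibiotics, and hBMSC-CM was RPMI mixed with medium conditioned by HS-5 cells, a human bone marrow stromal cell line. The hBMSC-CM groups therefore model soluble factors of 1 stromal line acting on 1 leukemia line. The comparisons address how far a FLT3 inhibitor lowers these transcripts, and how far the conditioned medium limits that change.

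Ribosomes are assembled mainly in the nucleolus, where RNA polymerase I makes a long precursor of the ribosomal RNAs. The small subunit processome and its UTP subcomplexes fold and cut the part that becomes the small subunit (40S), and pre-60S factors such as the PeBoW complex mature the large subunit (60S). The snoRNPs guide chemical changes of the precursor, with box C/D particles methylating ribose and box H/ACA particles making pseudouridine. Many of these genes are known as targets of MYC, a transcription factor that drives cell growth in leukemia.

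Total counts per library lay between 19966546 and 31546104, so that a count of 0 allowed up to 0.0951 to 0.150 CPM (counts scaled to a common library total) from counting error alone, and every member lay above that limit in every library. Levels below are CPM scaled by TMM factors, which ran from 0.956 to 1.04 over the 12 libraries. They are relative levels, so a loss of these transcripts in every cell and a smaller share of cells that make them cannot be told apart. A change in the amount of RNA per cell is not seen either. In its separate polysome experiment the paper reports less RNA with quizartinib in whole lysates, and still less in polysomes. The study calls its replicates biological, and what was kept separate between the libraries (cultures, days or treatments) is not given in the sources used here, so the p-values measure the spread between these libraries. Counts on mitochondrially encoded genes were 0.683% to 0.790% with vehicle and 1.02% to 1.10% with quizartinib in RPMI, and 0.458% to 0.613% and 0.683% to 0.947% in hBMSC-CM. With these genes left out of the total, the members' percent of library counts differed with quizartinib by -0.568 points in RPMI and -0.281 in hBMSC-CM. With all genes in the total the values were -0.566 and -0.283. The part of mitochondrially encoded genes in the other results was not tested. Of 10 fixed stromal markers, COL3A1, DCN, LUM, POSTN and THY1 were at 0 in all 12 libraries, and the summed level of the list was 0.382 to 0.888 CPM with vehicle in either medium, 1.78 to 2.09 with quizartinib in hBMSC-CM and 5.03 to 5.81 with quizartinib in RPMI. COL1A1 made up most of the last of these, at 4.51 to 4.96 CPM. The summed level of 10 myeloid markers was 1138 to 1195 CPM with vehicle and 1842 to 1874 with quizartinib in RPMI. In hBMSC-CM it was 1387 to 1419 and 2230 to 2355. That list was split with quizartinib in RPMI, where FLT3, PTPRC, LYZ, CSF1R and SPI1 rose. CD33, CEBPA and ITGAM fell, and the groups overlapped for MPO and CD14. The part of either list in the results was not tested.

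To show the letters upstream of genes that responded strongly and least, promoters of 3 strongly lowered members (NOP16, RRP9 and PNO1) and of the 3 with the smallest changes (RRP8, NPM1 and UTP6) are printed from RefSeq (GRCh38.p14). DDX21 and RRP12 fell slightly more than PNO1 but are not printed, and RRP12 had no entry. Each run holds the 250 bases before the annotated start and the first 30 after it, 5′ to 3′. Capitals mark the letters of CACGTG (the canonical E-box, which MYC is known to bind), CACGCG (a variant E-box) or CCGGAA (the core of ETS factor sites) on either strand. The regions are, in order, chr5:176388569-176388848 on the minus strand, chr3:51941875-51942154 on the minus strand, chr2:68157638-68157917 on the plus strand, chr11:6603587-6603866 on the minus strand, chr5:171386866-171387145 on the plus strand and chr17:31901679-31901958 on the minus strand.
NOP16: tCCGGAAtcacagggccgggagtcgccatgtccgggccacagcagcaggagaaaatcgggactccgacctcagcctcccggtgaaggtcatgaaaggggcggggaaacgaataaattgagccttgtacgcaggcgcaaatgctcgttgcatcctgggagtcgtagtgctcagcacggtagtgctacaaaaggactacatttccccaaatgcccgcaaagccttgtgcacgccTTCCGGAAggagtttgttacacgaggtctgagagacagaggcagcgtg
RRP9: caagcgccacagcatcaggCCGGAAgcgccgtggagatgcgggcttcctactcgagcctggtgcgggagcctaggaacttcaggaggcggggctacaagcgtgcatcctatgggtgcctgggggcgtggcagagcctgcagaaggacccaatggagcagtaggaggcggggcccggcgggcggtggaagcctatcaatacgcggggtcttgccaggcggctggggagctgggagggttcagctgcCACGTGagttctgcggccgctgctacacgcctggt
PNO1: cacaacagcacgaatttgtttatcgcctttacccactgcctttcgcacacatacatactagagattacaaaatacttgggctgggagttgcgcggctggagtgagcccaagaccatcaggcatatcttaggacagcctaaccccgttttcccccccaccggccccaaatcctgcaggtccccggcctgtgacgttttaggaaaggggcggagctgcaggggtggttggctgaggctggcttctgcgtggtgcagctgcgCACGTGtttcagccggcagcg
RRP8: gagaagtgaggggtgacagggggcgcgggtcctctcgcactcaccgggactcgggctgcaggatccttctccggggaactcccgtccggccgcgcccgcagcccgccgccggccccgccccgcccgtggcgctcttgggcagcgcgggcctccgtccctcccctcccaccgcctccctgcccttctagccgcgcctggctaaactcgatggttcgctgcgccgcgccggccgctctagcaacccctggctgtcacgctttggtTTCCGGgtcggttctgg
NPM1: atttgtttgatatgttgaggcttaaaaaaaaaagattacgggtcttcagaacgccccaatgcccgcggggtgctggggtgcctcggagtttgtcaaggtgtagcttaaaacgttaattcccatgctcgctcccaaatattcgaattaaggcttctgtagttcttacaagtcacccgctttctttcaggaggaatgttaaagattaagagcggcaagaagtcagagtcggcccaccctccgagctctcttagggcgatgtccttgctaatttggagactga
UTP6: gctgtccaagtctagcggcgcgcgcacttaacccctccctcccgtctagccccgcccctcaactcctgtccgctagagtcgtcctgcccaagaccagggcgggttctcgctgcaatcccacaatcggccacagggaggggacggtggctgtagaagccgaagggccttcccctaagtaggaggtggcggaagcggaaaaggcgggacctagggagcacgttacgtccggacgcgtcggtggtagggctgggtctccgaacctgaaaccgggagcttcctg

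Entries were found for 50 of the 57 members, with 55 promoters among them, and these were searched over the 250 bases before and 50 after each start. CACGTG was in 22 of the 55 promoters (40%), against 7.26% of all 35116 promoters and 9.72% of the 13075 promoters of tested genes. CCGGAA was in 29 (52.7%, against 17.2% and 28.2%) and CACGCG in 14 (25.5%, against 11.4% and 17.7%). CACGTG matches of the members lay close to the start, with 21 of 24 (87.5%) beginning within 50 bases of it, against 36.9% of 2821 matches over all promoters. The median base composition of the members' promoters was 64.0% G and C, beside 64.7% for tested genes. The median log2 fold change with quizartinib in RPMI was -1.40 for the 22 members with CACGTG and -1.40 for the 28 without it. The ranges were -2.89 to -0.47 with it and -3.06 to 0.12 without it. CACGTG was absent from NOP16, with the largest fall, and from UTP6, NPM1, RRP8 and NOB1, with the smallest changes. The 7 members with no entry, from RRP12 (-2.75) to DDX18 (-1.26), are not in these medians. A link between a match and the response was not tested. In the printed runs, CACGTG begins 5 bases before the start of RRP9 and 9 bases after that of PNO1, and NOP16 holds CCGGAA on both strands in 1 overlapping stretch. NPM1 and UTP6 hold none of the 3 words in these windows. The other RefSeq promoter of NPM1, not printed, holds CACGCG at 4 places, so what the printed runs show depends on the promoters picked. These matches describe letters and not bound sites.

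With quizartinib in RPMI, the assembly factors fell almost as a block. Of the 57 members, 55 were lower, 1 was higher and 1 was not called at an adjusted p under 0.05 (the quasi-likelihood test of edgeR, Benjamini-Hochberg over all tested genes), where 39.2% of all tested genes were called lower and 40.1% higher. The fall was at least 2-fold in 47 members, against 11.8% of tested genes. The median log2 fold change was -1.45, a 2.73-fold decrease, with quartiles of -2.12 and -1.15, beside a median of 0.02 over all tested genes. The levels of 56 members did not overlap between the groups and were lower with the drug, against 40.1% of tested genes.

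**Figure D1:**
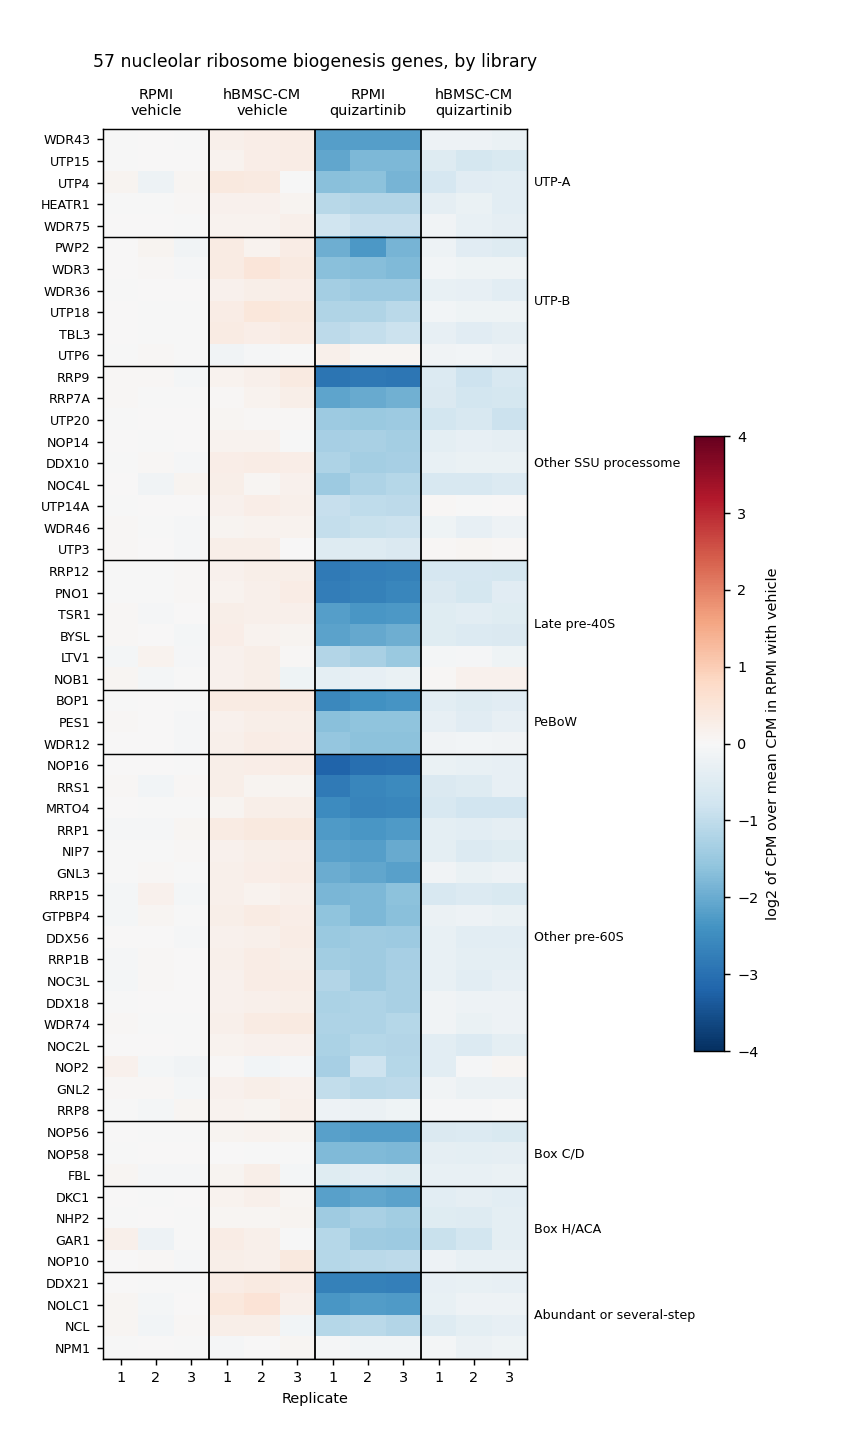
Heatmap of log2 CPM in each of the 12 libraries (columns, replicates 1 to 3 of each group) relative to the mean with vehicle in RPMI, for the 57 members (rows) grouped by role, blue for lower and red for higher. The 3 libraries of quizartinib in RPMI are the darkest blue for nearly every member, those of quizartinib in hBMSC-CM are pale blue, and UTP6, NPM1 and RRP8 stay pale throughout.

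Among small subunit processome factors, all 5 members of the UTP-A subcomplex fell, with log2 fold changes from -2.21 to -0.87. UTP-A, also called t-UTP, is the first to join the nascent precursor and is linked to its transcription. WDR43, one of its subunits, had a CPM of 261, 270.0 and 265 with vehicle and 57.3, 57.3 and 57.9 with quizartinib in RPMI. Vehicle and drug libraries were far apart for WDR43, and the log2 fold change was -2.21 (SE 0.0416, adjusted p = 1.43e-20). WDR75 had the smallest change of the subcomplex, with 123, 122 and 121 with vehicle and 70.5, 64.7 and 64.5 with quizartinib and a log2 fold change of -0.87 (SE 0.0511, adjusted p = 1.31e-12). The groups did not overlap for it either.

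UTP-B, which binds the 5′ part of the precursor, was split. PWP2, WDR3, WDR36, UTP18 and TBL3 fell, with log2 fold changes from -2.05 to -0.95, while UTP6 did not. WDR3 had 156, 159 and 152 with vehicle and 49.2, 47.9 and 46.0 with quizartinib, a log2 fold change of -1.70 (SE 0.0478, adjusted p = 5.43e-18). UTP6 had 139.6, 147 and 141 with vehicle and 165, 149 and 149 with quizartinib, so that all 3 drug libraries lay above all 3 vehicle libraries by a small margin. Its log2 fold change was 0.12 (SE 0.0477, adjusted p = 0.0327), the only increase among the members. That call was lost without replicate 1 of quizartinib in RPMI (0.07), without replicate 1 or 3 of vehicle in RPMI (0.10 and 0.11), without replicate 2 of vehicle in hBMSC-CM (0.11) and without the filter on low counts (0.01). PWP2 had only 11.4, 12.4 and 10.5 with vehicle and 2.95, 2.33 and 3.13 with quizartinib, and 89.6% of its 50-base words occur in another annotated gene, so its count may be split.

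The other 9 small subunit processome factors all fell, with a median of -1.31. RRP9, a protein of the U3 snoRNP, whose RNA pairs with the precursor to start its cleavage, had 73.4, 73.2 and 67.8 with vehicle and 9.51, 9.84 and 9.62 with quizartinib. The drug libraries lay close together and far below the vehicle libraries, and the change of -2.89 (SE 0.0779, adjusted p = 2.81e-18) was second in size among the members. UTP3 had the smallest fall of this group, from 47.6, 46.5 and 44.7 to 32.4, 32.1 and 31.0, a log2 fold change of -0.54 (SE 0.0597, adjusted p = 4.29e-08). NOP14 and NOC4L, which bind each other in the assembling small subunit, had log2 fold changes of -1.33 and -1.27.

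Late pre-40S factors had the lowest median of the role groups with more than 3 members, at -2.17. RRP12, needed for export of both subunits, had 129.9, 129 and 134 with vehicle and 18.5, 19.8 and 20.1 with quizartinib, a log2 fold change of -2.75 (SE 0.0473, adjusted p = 6.25e-21). PNO1, a KH-domain protein that acts with the nuclease NOB1 near the end of the small subunit rRNA, had 44.2, 44.6 and 46.1 with vehicle and 6.56, 6.85 and 7.33 with quizartinib and changed by -2.71 (SE 0.0747, adjusted p = 4.14e-18). In both genes the drug libraries lay far below every vehicle library. NOB1, the endonuclease that makes the last cut of the small subunit rRNA, moved far less, with 79.1, 70.5 and 74.7 with vehicle and 57.1, 60.1 and 62.1 with quizartinib and a log2 fold change of -0.32 (SE 0.0739, adjusted p = 0.000455). LTV1, another late factor, lay between them at -1.31, and 30.3% of its 50-base words are shared with another annotated gene, as are 30.5% of those of NOB1.

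All 3 subunits of PeBoW, the complex of pre-60S particles named after PES1, BOP1 and WDR12, fell by at least 2-fold. BOP1 had 188, 189 and 188 with vehicle and 31.6, 34.8 and 37.1 with quizartinib, a log2 fold change of -2.45 (SE 0.0497, adjusted p = 4.09e-20). PES1 and WDR12 had near values, -1.62 (SE 0.0454) and -1.61 (SE 0.0433), and the levels of neither overlapped between the groups. Of the 17 other pre-60S factors, all were called lower and 16 were at least 2-fold lower, against 39.2% and 11.8% of tested genes. NOP16, a small nucleolar protein of pre-60S particles, had 71.3, 71.0 and 69.0 with vehicle and 7.68, 8.76 and 8.84 with quizartinib. Its log2 fold change of -3.06 (SE 0.0591, adjusted p = 2.01e-20) was the largest among the members. RRS1, which helps to place the 5S RNA particle, changed by -2.66 (SE 0.0846). RRP8, a nucleolar methyltransferase that methylates a base of the large subunit rRNA, had 44.2, 42.6 and 47.9 with vehicle and 38.7, 38.3 and 40 with quizartinib and a log2 fold change of -0.20 (SE 0.0526, adjusted p = 0.00141), a call lost with library size alone (-0.11) and with upper-quartile factors (-0.10).

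In the box C/D core, the methyltransferase had a smaller change than its partners. NOP56, one of the paired scaffold proteins, had 440.4, 425 and 431 with vehicle and 96.4, 92.6 and 91.3 with quizartinib, a log2 fold change of -2.21 (SE 0.0412, adjusted p = 1.26e-20). NOP58, the other, had 253, 261 and 260.2 with vehicle and 75.3, 75.1 and 74.7 with quizartinib, a change of -1.78 (SE 0.039, adjusted p = 1.26e-19). FBL (fibrillarin), the enzyme that methylates ribose, had 147, 135 and 134 with vehicle and 98.2, 103 and 99.4 with quizartinib, a change of -0.47 (SE 0.0601, adjusted p = 4.16e-07). In all 3 genes every drug library lay below every vehicle library, but the gap was narrow for FBL. The 4 box H/ACA proteins fell, with log2 fold changes from -2.12 to -1.08. DKC1 (dyskerin), the pseudouridine synthase, had 229, 225 and 229 with vehicle and 50.9, 54.3 and 52.0 with quizartinib and the largest change of them, -2.12 (SE 0.045, adjusted p = 8.54e-20). NHP2, GAR1 and NOP10, its partners, changed by -1.37, -1.33 and -1.08. For NHP2, 46.1% of 50-base words are shared with another annotated gene.

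Among abundant or several-step nucleolar proteins, DDX21, an RNA helicase that links polymerase I and II transcription to rRNA processing, had 771, 759 and 759 with vehicle and 118, 117 and 115 with quizartinib and a log2 fold change of -2.71 (SE 0.0421, adjusted p = 1.92e-21). NOLC1, a chaperone of snoRNPs, changed by -2.27 (SE 0.0671). NCL (nucleolin), a histone and pre-rRNA chaperone, had 1738, 1532 and 1693 with vehicle and 748, 784 and 736 with quizartinib, a change of -1.13 (SE 0.0739, adjusted p = 8.23e-12). NPM1 (nucleophosmin), which forms the outer layer of the nucleolus and is often mutated in AML, had 2143, 2188 and 2152 with vehicle and 2083, 2009 and 2013 with quizartinib. The drug libraries were all slightly lower, but NPM1 was the 1 member not called, with a log2 fold change of -0.09 (SE 0.0487, adjusted p = 0.108). It was called lower without the filter on low counts (-0.19, adjusted p = 2.69e-05) and with only the 2 groups compared (-0.09, adjusted p = 0.031), while its sign turned with library size alone and with upper-quartile factors. For NPM1, 20.7% of 50-base words occur in another gene, most of all in the pseudogene NPM1P27.

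**Figure D2:**
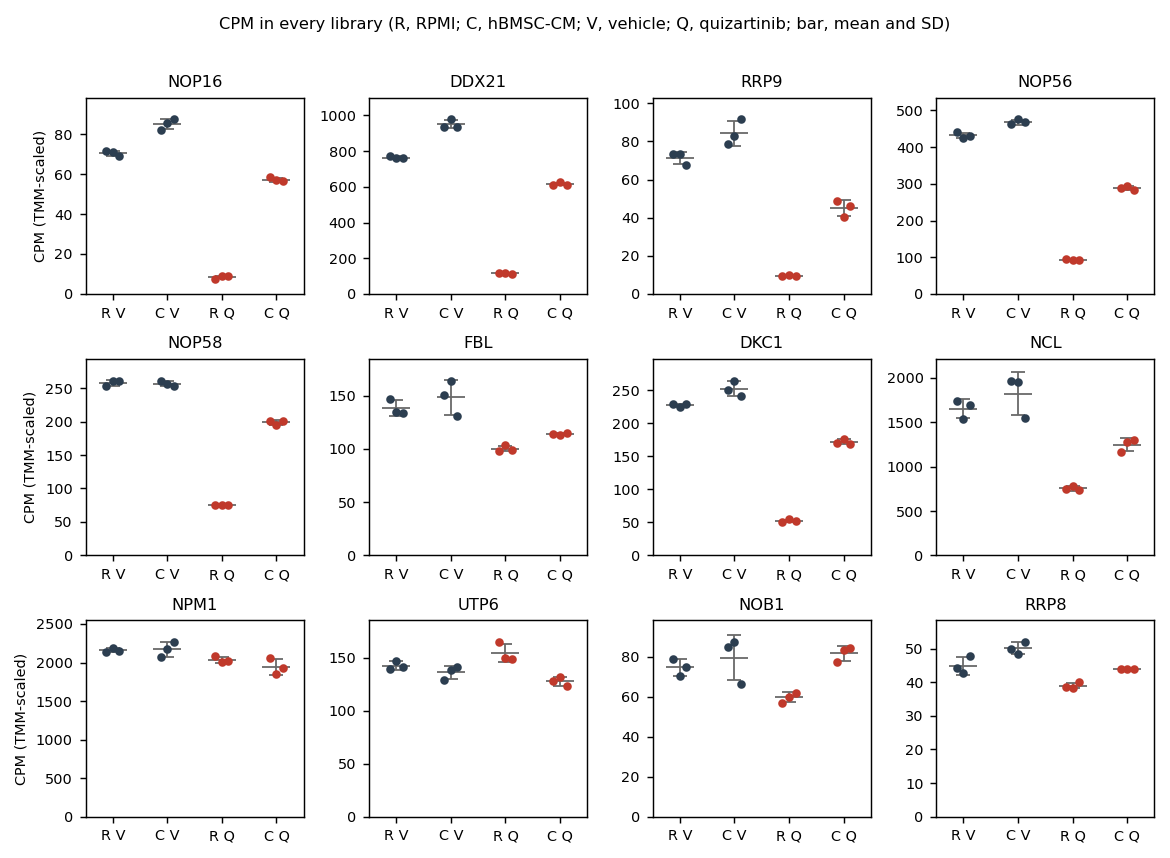
CPM (TMM-scaled, linear axis from 0) of 12 members in each library, with the mean and SD of 3 replicates per group (R, RPMI; C, hBMSC-CM; V, vehicle in dark blue; Q, quizartinib in red). NOP16, DDX21, RRP9, NOP56, NOP58 and DKC1 are far lower with quizartinib in RPMI than in any other group, while NPM1, UTP6 and RRP8 lie near 1 level in all 4.

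In hBMSC-CM the same drug and dose lowered nearly as many members, but by less. There 53 of 57 were called lower, none was higher and 4 were not called, against 33.7% of tested genes called lower and 33.4% higher. No member fell 2-fold, but only 2.03% of tested genes did, so this does not set the members apart. The median log2 fold change was -0.57, a 1.48-fold decrease, with a range from -0.90 to 0.04. With library size alone as the scaling, the median over all tested genes shifted to 0.11 in both media, the members' medians were -1.36 in RPMI and -0.46 in hBMSC-CM, and 3311 genes were called lower and 5583 higher in hBMSC-CM, against 4378 and 4344 with TMM. MRTO4, a factor of the pre-60S stalk, RRP9 and RRP12 had the largest falls, at -0.90, -0.90 and -0.89. RRP9 had 78.8, 82.7 and 91.5 with vehicle and 49.0, 40.4 and 46.1 with quizartinib in hBMSC-CM, and the groups did not overlap. The 4 members that were not called were NOB1 (0.04, adjusted p = 0.664), NOP2 (-0.11, adjusted p = 0.556), UTP6 (-0.09, adjusted p = 0.101) and UTP3 (-0.11, adjusted p = 0.0882). UTP6 was called lower without replicate 1 of vehicle in hBMSC-CM (-0.13, adjusted p = 0.0318), and UTP3 without replicate 3 of that group (-0.18, adjusted p = 0.00457). NOP2, an rRNA cytosine methyltransferase, had the fewest counts of the members, at 3.63, 3.30 and 3.42 CPM with vehicle and 2.66, 3.42 and 3.70 with quizartinib, and 68.1% of its 50-base words occur in another annotated gene.

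NOP16, which fell most in RPMI, had 82.2, 85.5 and 87.3 with vehicle and 58.3, 56.8 and 56.3 with quizartinib in hBMSC-CM, a log2 fold change of -0.57 (SE 0.0469, adjusted p = 1.08e-09). DDX21 had 936, 977 and 937 with vehicle and 613, 624 and 612 with quizartinib, a change of -0.62 (SE 0.0389, adjusted p = 1.52e-11). In both genes every drug library still lay below every vehicle library, at a far smaller distance than in RPMI. In the box C/D core, NOP56 had 462, 475 and 468 with vehicle and 288, 295 and 284 with quizartinib and changed by -0.70 (SE 0.0388, adjusted p = 2.54e-12). FBL had 151, 164 and 130.6 with vehicle and 114, 113 and 115 with quizartinib and changed by -0.38 (SE 0.0599, adjusted p = 1.07e-05), close to its value in RPMI. In the box H/ACA core, the groups of DKC1 did not overlap either, with 251, 264 and 241 with vehicle and 169.8, 176 and 169 with quizartinib, a change of -0.55 (SE 0.0418, adjusted p = 2.87e-10). NPM1 had 2075, 2177 and 2263 with vehicle and 2060, 1857 and 1924 with quizartinib and was called lower at -0.16 (SE 0.0487, adjusted p = 0.00756), which was lost without replicate 2 of quizartinib in hBMSC-CM (-0.12), with library size alone (-0.05) and with upper-quartile factors (-0.08). Its highest drug library lay just below its lowest vehicle library. BOP1, PES1 and WDR12 of PeBoW changed by -0.78, -0.58 and -0.38, and NCL and NOLC1 by -0.55 and -0.64.

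**Figure D3:**
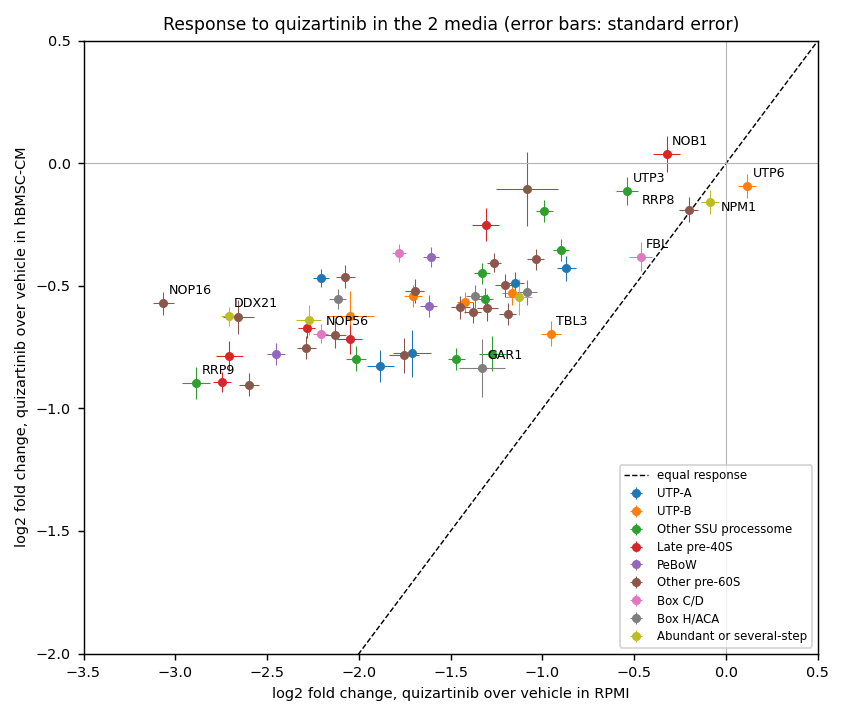
Log2 fold change with quizartinib in hBMSC-CM (vertical axis) against that in RPMI (horizontal axis, on a different scale) for the 57 members, coloured by role, with standard errors and a dashed line of equal response. Of the 57 points, 55 lie above the line, NOP16 and DDX21 furthest, and FBL, RRP8, NPM1 and UTP6 lie close to it or below.

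The difference between the responses was tested directly as the interaction of quizartinib and medium. It was higher in 53 members, meaning a smaller fall in hBMSC-CM, lower in 1 and not called in 3, against 26.1% of tested genes called higher and 19.2% lower. The median was 0.94, and it was at least 1 on the log2 scale in 26 members, against 4.89% of tested genes. It ran from 2.49 for NOP16 (SE 0.0765, adjusted p = 1.33e-15), followed by DDX21 (2.09) and RRS1 (2.03), down to UTP6 (-0.21, adjusted p = 0.0173), whose call was lost without replicate 1 of quizartinib in RPMI (-0.16) or without the filter (-0.13). RRP8 (0.01, adjusted p = 0.897), FBL (0.08, adjusted p = 0.443) and NPM1 (-0.07, adjusted p = 0.43) were the 3 not called. In the box C/D core, NOP56 and NOP58 thus differed between the media by 1.51 and 1.41, and FBL by an amount within its error. GAR1 was called at 0.49 (adjusted p = 0.0262), but not without replicate 1 of vehicle in RPMI (0.38), replicate 2 or 3 of quizartinib in RPMI (0.44 and 0.45) or replicate 3 of quizartinib in hBMSC-CM (0.33). Across the 57 members, the responses in the 2 media had a Pearson r of 0.714 and a Spearman rho of 0.692, beside 0.863 and 0.875 across all tested genes, where genes are not independent replicates. The response in RPMI had almost no relation across members to the level per kilobase with vehicle (r 0.0088, rho -0.043).

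Set side by side under quizartinib, hBMSC-CM libraries held more of these transcripts than RPMI libraries. This comparison and those that follow reuse libraries of the comparisons above, so their values are not independent of them. Of the 57 members, 55 were higher in hBMSC-CM, against 35.5% of tested genes (34.3% were lower), and 36 were at least 2-fold higher, against 7.15%. The median log2 fold change was 1.08, a 2.11-fold difference. NOP16 had 7.68, 8.76 and 8.84 CPM in RPMI and 58.3, 56.8 and 56.3 in hBMSC-CM with quizartinib, a difference of 2.76 (SE 0.0599, adjusted p = 7.98e-19). DDX21 had 118, 117 and 115 against 613, 624 and 612, a difference of 2.40 (SE 0.0417, adjusted p = 2.44e-20). No library of either gene came near the other medium's values. UTP6 was the 1 member that was lower (-0.27, adjusted p = 3.48e-05), with 165, 149 and 149 against 128, 132 and 123, and NPM1 was not called (-0.06, adjusted p = 0.25), but was with upper-quartile factors (-0.11, adjusted p = 0.0482).

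The conditioned medium alone, with vehicle, was followed by a small rise. It was called higher in 42 members, lower in none and uncalled in 15, against 16.6% of tested genes called higher, and the median log2 fold change was 0.21, a 1.16-fold increase. The count fell to 34 with upper-quartile factors and ran from 35 to 43 when a library was left out. NOLC1, WDR3 and UTP18 rose most. NOLC1 had 331, 294 and 316 in RPMI and 424, 457 and 365 in hBMSC-CM, a change of 0.40 (SE 0.0617, adjusted p = 4.27e-05). WDR3 had 156, 159 and 152 in RPMI and 196, 218 and 201 in hBMSC-CM, a change of 0.40 (SE 0.0442, adjusted p = 8.53e-07), and UTP18, another UTP-B protein, changed by 0.38 (SE 0.047). The groups did not overlap in any of the 3. NOP58 (-0.01, adjusted p = 0.892), NPM1 (0.01, adjusted p = 0.93) and NOP2 (-0.04, adjusted p = 0.876) were closest to no difference. PWP2 (0.25, adjusted p = 0.0537) and NOC4L (0.18, adjusted p = 0.0554) just missed the threshold, and each was called under several alternatives.

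Against cells with vehicle in RPMI, cells with both quizartinib and hBMSC-CM still held slightly less of most members. Of the 57, 51 were called lower and none higher, against 31.6% of tested genes called lower, with a median log2 fold change of -0.35, a 1.28-fold decrease. UTP20, a large scaffold protein of the small subunit processome, had the largest fall, at -0.74, followed by MRTO4 at -0.71 and RRP12 at -0.68. NOP16, which fell most in RPMI, stood at -0.30 here, with 71.3, 71.0 and 69.0 with vehicle in RPMI and 58.3, 56.8 and 56.3 with both quizartinib and hBMSC-CM. The 6 members not called were UTP14A (0.01), RRP8 (-0.03), UTP3 (0.05), LTV1 (-0.10), NOB1 (0.13) and NOP2 (-0.14). NOB1 was called higher with library size alone (0.22), with upper-quartile factors (0.18), with only the groups compared (0.14) and without replicate 3 of vehicle in hBMSC-CM (0.13), and UTP3 with library size alone (0.14).

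**Figure D4:**
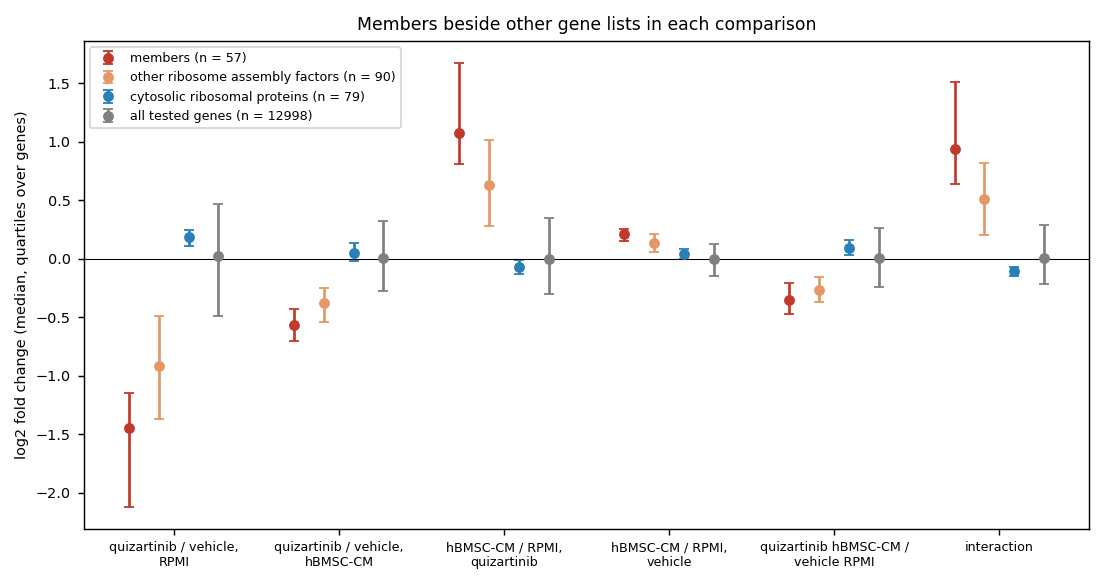
Median log2 fold change (points) and quartiles over genes (bars) in each comparison for the 57 members, 90 other ribosome assembly factors, 79 cytosolic ribosomal proteins and all 12998 tested genes. The members lie at -1.45 with quizartinib in RPMI and at -0.57 in hBMSC-CM, with the other assembly factors at -0.92 and -0.37 and the ribosomal proteins just above 0.

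Other ribosome assembly factors moved the same way. Of a list of 92 further factors, also chosen with earlier results of these data known, 90 were in the table and all of these were tested. With quizartinib in RPMI, 84 (93.3%) were lower and 3 higher, against 39.2% and 40.1% of tested genes, with a median log2 fold change of -0.92. In hBMSC-CM, 75 (83.3%) were lower and 3 higher (median -0.37), against 33.7% and 33.4%. The interaction was called higher in 69 (76.7%) and lower in 2, against 26.1% and 19.2%. MYBBP1A, a nucleolar MYB-binding protein, and URB2, a pre-60S factor, had the largest falls of the list in RPMI, -2.83 (SE 0.0554) and -2.58 (SE 0.0608). RSL24D1 and ZNF622, which act on late pre-60S particles, had the smallest changes, -0.01 (SE 0.0541) and -0.02 (SE 0.0508). Cytosolic ribosomal proteins, the structural parts of the ribosome, had mostly higher relative levels in RPMI with the drug. Of 79, 54 (68.4%) were higher and 6 (7.59%) lower with quizartinib in RPMI (median 0.19), against 40.1% and 39.2% of tested genes. The fall was at least 2-fold in 3 of the 79, down to a log2 fold change of -2.35, against 11.8% of tested genes. In hBMSC-CM, 23 (29.1%) were higher and 7 (8.86%) lower (median 0.05), against 33.4% and 33.7%, so both shares there were below those of all tested genes. Under library size alone the whole distribution of genes shifted up by the 0.11 given above, which is of the same order as these small medians.

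MYC itself had 440.5, 413 and 435 CPM with vehicle and 47.3, 51.9 and 52.5 with quizartinib in RPMI, and 787, 775 and 800.1 with vehicle and 583, 585 and 616 with quizartinib in hBMSC-CM. Its log2 fold changes were -3.09 (SE 0.0504, adjusted p = 3.09e-21) in RPMI and -0.40 (SE 0.0445, adjusted p = 8.41e-08) in hBMSC-CM, with an interaction of 2.68. With quizartinib in hBMSC-CM it lay above its level with vehicle in RPMI by 0.47 (adjusted p = 1.16e-08). Of the 57 members, 51 were called lower in that comparison, against 31.6% of tested genes. These are levels of MYC RNA and not of its protein, and a link between MYC and the members was not tested.

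In all, the members took up 1.12% ± 0.00392 (SD, n = 3) of library counts with vehicle in RPMI, 0.551% ± 0.00829 with quizartinib in RPMI, 1.24% ± 0.0222 with vehicle in hBMSC-CM and 0.954% ± 0.00494 with quizartinib in hBMSC-CM. The share with quizartinib was thus 0.493 of that with vehicle in RPMI and 0.771 in hBMSC-CM. No 2 groups overlapped, and each of the 5 comparisons reached the smallest two-sided p that an exact permutation test of 3 against 3 libraries can give, 0.1 (0.1 also after Benjamini-Hochberg adjustment over the 5). NPM1 and NCL together held 0.370% of counts with vehicle and 0.288% with quizartinib in RPMI, so the other 55 members fell further, from 0.746% to 0.263%. In hBMSC-CM these 55 went from 0.854% to 0.625%.

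**Figure D5:**
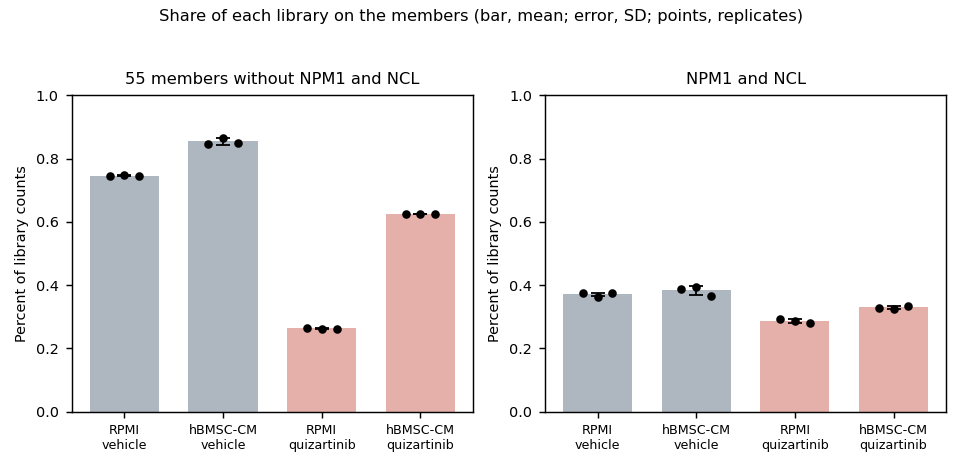
Percent of library counts on 55 members (left) and on NPM1 and NCL (right) in each library, with bars for the mean, error bars for the SD and points for the 3 replicates of each group. The 55 members are lowest with quizartinib in RPMI (0.263%) and highest with vehicle in hBMSC-CM (0.854%), while NPM1 and NCL range only from 0.288% to 0.383%.

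The order of the levels changed with the drug. Per kilobase of the canonical transcript, with vehicle in RPMI, NPM1 had 1637 CPM, NCL 422, NOP56 226, NOP10 178 and DDX21 164, and NOP2 was lowest with 1.33. For NOP2, 68.1% of 50-base words occur in another annotated gene, so its count may be split and its place is uncertain. With quizartinib in RPMI, NPM1 (1542) and NCL (193) stayed at the top, FBL moved from 8th to 3rd place at 89.2 CPM per kilobase, and DDX21 moved from 5th to 18th at 25 CPM per kilobase. UTP6 moved from 32nd to 9th, with 32.9 before and 35.6 after. The 7 members WDR43, TSR1, GNL3, NOP56, NOP58, DKC1 and NCL hold annotated snoRNA genes within their own span. Their median log2 fold change with quizartinib in RPMI was -2.12, beside -1.37 for the 50 others, and -0.55 beside -0.58 in hBMSC-CM. In RPMI these 7 ranged from -2.28 to -1.13, within the range of the 50 others (-3.06 to 0.12), and the difference was not tested. The libraries were poly-A selected, so these are values of the host transcripts and not of the snoRNAs.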

How the data were processed

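RNA-seq of poly-A-selected RNA was sequenced from both ends in 12 libraries, grouped by the treatment and medium in their labels. The authors trimmed reads with BBDuk, removed short reads, aligned to the human Ensembl genome (hg38) with STAR 2.6.0a and deposited raw counts per gene name, with no normalization; a strand setting is not given in the sources used here, so overlapping antisense genes cannot be told apart. From the deposited counts, a gene was kept if its mean count and its mean CPM both reached 1 (12998 of 30572 with a count), scaled by TMM and fitted with edgeR 4.0.16 (glmQLFit, glmQLFTest) in R 4.3.3, with 4 group means. Tests were two-sided, with Benjamini-Hochberg adjustment over all tested genes and a threshold of 0.05. The study's own comparisons used limma, which was here an alternative (3.58.1), as was DESeq2 1.42.0. The other alternatives were scaling factors, filters, fewer groups, a replicate block and each library left out. Replicate pairs differed by more than sampling noise. Scripts were tested on simulated counts.

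The members and lists were chosen with earlier results of these data known. Members named with values were those with the largest and smallest changes overall and per role group, the largest and smallest interactions, every member of PeBoW, the snoRNP cores and the abundant group, up to 5 uncalled or opposite members per comparison, and the 3 that changed most between media with vehicle. UTP14A, UTP20, MRTO4, WDR36, TBL3, TSR1 and GNL3 are also mentioned outside that rule. Gene positions, lengths and shared 50-base words came from a GENCODE annotation of GRCh38, and promoters from RefSeq, where 7 members had no entry.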

Additional observations from a re-analysis of the deposited data

Results flagged for a closer look

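The response to quizartinib differed between RPMI and hBMSC-CM, by edgeR's test of the interaction with Benjamini-Hochberg adjustment, in 29 of the 32 members described by name and in MYC. Values are the log2 fold change in hBMSC-CM minus that in RPMI, so a positive value is a smaller fall in hBMSC-CM. MYC differed by 2.68. Among small subunit factors the differences were RRP9 1.99, WDR43 1.74, PWP2 1.42, WDR3 1.16, NOP14 0.88, UTP18 0.64, NOC4L 0.50, WDR75 0.44 and UTP3 0.43. Among late pre-40S factors they were PNO1 1.92, RRP12 1.85, LTV1 1.06 and NOB1 0.36. Among pre-60S factors, PeBoW included, they were NOP16 2.49, RRS1 2.03, BOP1 1.67, WDR12 1.22, PES1 1.04 and NOP2 0.98. In the snoRNP cores they were DKC1 1.56, NOP56 1.51, NOP58 1.41, NHP2 0.82, NOP10 0.56 and GAR1 0.49, and among the abundant proteins DDX21 2.09, NOLC1 1.64 and NCL 0.58. UTP6 was the 1 member that differed the other way, by -0.21. Some members were named for their largest or smallest interaction or fall in RPMI. The 29 of 32 is therefore not a share to set against all genes. Over all 57 members the interaction was called higher in 53 and lower in 1, against 26.1% and 19.2% of all tested genes.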

How the results depend on the processing

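Of 454 recomputed counts, medians and shares, 420 stayed within the error or within 1.5 times of the value given, and of 4186 recomputed values of single genes, 4080 kept their direction and their side of the threshold, 51 lost a call, 33 gained one and 22 turned sign. With library size only, the median log2 fold change over the members was -1.36 for quizartinib in RPMI, -0.46 in hBMSC-CM and -0.27 for quizartinib in hBMSC-CM against vehicle in RPMI, where 2 members were then called higher. With upper-quartile factors these were -1.35, -0.48 and -0.30, with 1 called higher, and hBMSC-CM against RPMI with quizartinib was 1.03 with 2 called lower. Without the filter on low counts the medians were -1.55 in RPMI, 1.15 for hBMSC-CM against RPMI with quizartinib and 1.01 for the interaction, no member was called higher in RPMI (0) and none had a lower interaction (0). A filter at a mean CPM of 5 gave -1.41 in RPMI. With only the groups compared, 1 member was higher with quizartinib in hBMSC-CM than with vehicle in RPMI. Without NOP2 and PWP2, an alternative chosen after seeing the data, the interaction median was 0.88. Without NPM1 and NCL the differences in the percent of counts were -0.483 in RPMI, -0.230 in hBMSC-CM, 0.362 between media with quizartinib and -0.122 against vehicle in RPMI. The cause of these shifts was not tested.

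Where a sign turned, neither the value given nor the turned value was called, although other alternatives called NPM1 in RPMI and UTP6 in hBMSC-CM lower, and NPM1 lower between media with quizartinib. For NPM1 the turned values were 0.0019 and 0.0148 in RPMI (library size only, upper quartile), 0.0132 between media with quizartinib and 0.0016 for the interaction (both without the filter), and -0.011, -0.0202 and -0.0002 between media with vehicle (library size only, upper quartile, CPM of 5). For RRP8 they were 0.0551, 0.0238 and 0.0037 with the same 3 settings for quizartinib in hBMSC-CM against vehicle in RPMI, and -0.0051 for the interaction (upper quartile). For UTP6 in hBMSC-CM it was 0.0131 (library size only).

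Leaving out 1 library at a time, members called higher in RPMI ran from 0 to 1, as did those called higher with quizartinib in hBMSC-CM against vehicle in RPMI (1 without replicate 3 of vehicle in hBMSC-CM) and those with a lower interaction, and the interaction median ran from 0.874 to 0.991. The log2 fold change in hBMSC-CM ran from -0.0715 to 0.105 for NOB1 and from -0.206 to 0.0374 for NOP2. Between media with vehicle it ran from -0.0923 to 0.0714 for NOP2, -0.0221 to 0.0002 for NOP58 and -0.0255 to 0.0397 for NPM1. For RRP8 it ran from -0.0686 to 0.0136 for quizartinib in hBMSC-CM against vehicle in RPMI, and from -0.0326 to 0.0497 for the interaction.

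Replicate numbers are shared by the groups, but libraries with the same number did not deviate together (correlations from -0.297 to 0.138). The pair of replicate 1 of quizartinib and replicate 3 of vehicle in hBMSC-CM reached 0.307. The numbers thus gave no sign of pairing, and batches shared under other numbers were not tested. With the replicate number as a block, 55 members were lower in RPMI (median -1.45), 53 in hBMSC-CM and 40 higher between media with vehicle, where NOC4L became called. Of the 12998 tested genes, 5063, 4327 and 2054 were called in those directions.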
